A study of Saccharomyces cerevisiae with 4 samples.

Results

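Dcp2-TAP is set here against Lsm1-TAP, a pair of ChIP-exo libraries from budding yeast, out of 4 libraries in the whole series. Both strains were labelled with the background yMC458 and grown in YPD, rich medium with glucose. The first had the genotype DCP2-TAP and the second LSM1-TAP, each with a tandem affinity purification tag on 1 decay factor. An XRN1-TAP strain and a strain without a tag (No-TAP) of the same background gave the other libraries, which are used below as background. The labels do not name the promoter of the tagged genes or the number of clones. With 1 library for each strain, no replicate stands behind any difference between them, and no p-value is given.

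Dcp2 is the catalytic subunit of the decapping enzyme, which removes the 5′ cap of an mRNA and so exposes it to the exonuclease Xrn1. Lsm1 belongs to the Lsm1-7 ring, which with Pat1 binds the 3′ end of deadenylated mRNA and promotes decapping. Both proteins are best known from the cytoplasm. The series asks where these decay factors lie on chromatin, and in ChIP-exo an exonuclease trims each pulled-down fragment towards the crosslinked protein before it is sequenced.

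The deposited values are counts of tags at each position and strand. A position with its strand was counted once, as a distinct position, and the tags are given beside it. Dcp2-TAP held 44955 distinct positions and 357674 tags, against 25342 positions and 211236 tags in Lsm1-TAP. The Xrn1-TAP library held 18481 positions, and No-TAP held 4743. A position carried 7.96 tags on average in Dcp2-TAP and 8.34 in Lsm1-TAP. Dcp2-TAP thus had 1.77 times the positions with 1.69 times the tags, and with its tags thinned to the Lsm1-TAP number it kept 39763 positions, 1.57 times those of Lsm1-TAP. All ratios below are therefore of shares, the positions of a window divided by the library's total, Dcp2-TAP over Lsm1-TAP. Each is given with an exact conditional binomial 95% interval, which covers counting error only. Intervals by tags take each tag as independent although many tags share a position, so they are too narrow. Chromosome XI was left out of all gene windows, where the totals used were 43070 and 24304 positions.

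Relative to Lsm1-TAP, the Dcp2-TAP positions lay more often beside genes and less often inside them. The 300 bp upstream of start codons held 25.7% of the Dcp2-TAP positions and 21.9% of the Lsm1-TAP positions, a ratio of 1.18 (1.14 to 1.22). The 300 bp past stop codons held 20.1% and 18.1%, a ratio of 1.11 (1.07 to 1.15). Coding regions held 45.6% of Dcp2-TAP and 49.5% of Lsm1-TAP, a ratio of 0.922 (0.901 to 0.943). These 3 intervals do not hold 1. Positions past stop codons that were neither upstream of another gene nor coding gave 1.15 (1.09 to 1.21). Thinned at random to the Lsm1-TAP number of positions, Dcp2-TAP gave 1.18 upstream, 0.922 in coding regions and 1.11 past stop codons, and by tags the ratios were 1.17, 0.926 and 1.11. The direction in coding regions depends on the scaling. With totals scaled to the median ratio of upstream windows with positions in both libraries, the coding ratio was 1.09 in place of 0.922. That median sets no lower limit on the positions of a window.

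The control library lay nearer to Dcp2-TAP. No-TAP had 25.3% of its positions upstream of start codons, 46.4% in coding regions and 19.8% past stop codons. Its upstream share was that of Dcp2-TAP within counting error, with a ratio of Dcp2-TAP over No-TAP of 1.02 (0.959 to 1.08). For Lsm1-TAP over No-TAP the ratio was 0.866 (0.812 to 0.924) upstream, 1.07 (1.02 to 1.12) in coding regions and 0.915 (0.851 to 0.984) past stop codons. Xrn1-TAP, with 24.1% upstream, lay between the pair. The library whose shares stood apart from the control beyond counting error was thus Lsm1-TAP. The part of untagged background in either library was not tested.

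**Figure D1:**
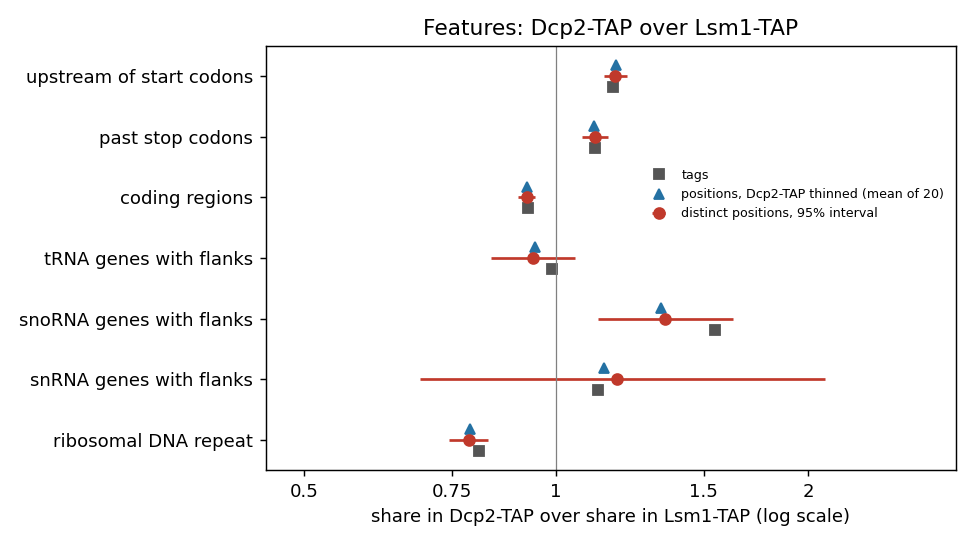
Ratio of the share of each feature class in Dcp2-TAP to that in Lsm1-TAP, on a log scale, 1 library each. Circles are distinct positions with 95% counting intervals, triangles the mean of 20 thinnings of Dcp2-TAP to equal positions, squares tags. Upstream windows (1.18) and regions past stop codons (1.11) lie right of 1, coding regions (0.922) and the ribosomal DNA repeat (0.786) left of it.

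The ribosomal DNA repeat, which encodes the large rRNA precursor and the 5S rRNA, went the other way. It held 7.55% of the Dcp2-TAP positions and 9.60% of the Lsm1-TAP positions, a ratio of 0.786 (0.745 to 0.829). The deficit was present in the RDN25 genes at 0.774 (0.709 to 0.844), in the RDN18 genes at 0.827 (0.727 to 0.941) and in the spacers at 0.767 (0.704 to 0.836). In RDN58 the ratio was 0.871 and in RDN5 0.973, both with intervals that hold 1. No-TAP had 8.12% there, so Lsm1-TAP stood at 1.18 (1.06 to 1.32) times the control and Dcp2-TAP at 0.929 (0.834 to 1.04). Reads of this repeat come from many copies that the gene table lists as 2, and they are uncertain. With the repeat left out of the totals the upstream ratio was 1.15 and the coding ratio 0.901.

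Around start codons the libraries had peaks at the same place and of different height. The densest 20 bp lay 81 to 100 bp upstream in each, where the share of Dcp2-TAP was 1.32 (1.19 to 1.46) times that of Lsm1-TAP. The density 41 to 140 bp upstream was 3.94 times that of the gene body, the coding region beyond its first 100 bp, in Dcp2-TAP and 2.72 times in Lsm1-TAP. The ratio of the folds was 1.45 (1.37 to 1.53), against folds of 3.38 in Xrn1-TAP and 3.49 in No-TAP. Because a position can lie near more than 1 gene and is then counted for each, the intervals of these folds are too narrow. Within 500 bp upstream, the median distance to the start codon was 194 bp for Dcp2-TAP positions and 208 bp for Lsm1-TAP positions. Windows of divergent genes had a ratio of 1.20 (1.15 to 1.25) and those of tandem genes 1.18 (1.13 to 1.23), so the upstream excess was of like size at promoters shared by a pair of genes and at others.

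Density past stop codons was set against the gene body, which itself had a ratio of 0.902 (0.881 to 0.923), so the folds below take in that lower body share. The 300 bp past the stop codon were 2.40 times as dense as the gene body in Dcp2-TAP and 1.94 times in Lsm1-TAP, a ratio of 1.24 (1.19 to 1.29). Xrn1-TAP had 2.13 and No-TAP 2.26. At the 1006 genes whose next gene ends towards them at a distance of 300 bp or more, where no start codon faces the window, the folds were 2.09 and 1.46, a ratio of 1.44 (1.32 to 1.56), against 1.60 in No-TAP. At the 770 genes followed by a tandem gene at least 600 bp away the folds were 1.66 in Dcp2-TAP and 1.37 in Lsm1-TAP, a ratio of 1.21 (1.09 to 1.34). On a broad maximum, the densest 20 bp of Dcp2-TAP lay 220 to 239 bp past the stop codon, and those of Lsm1-TAP 160 to 179 bp past it.

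**Figure D2:**
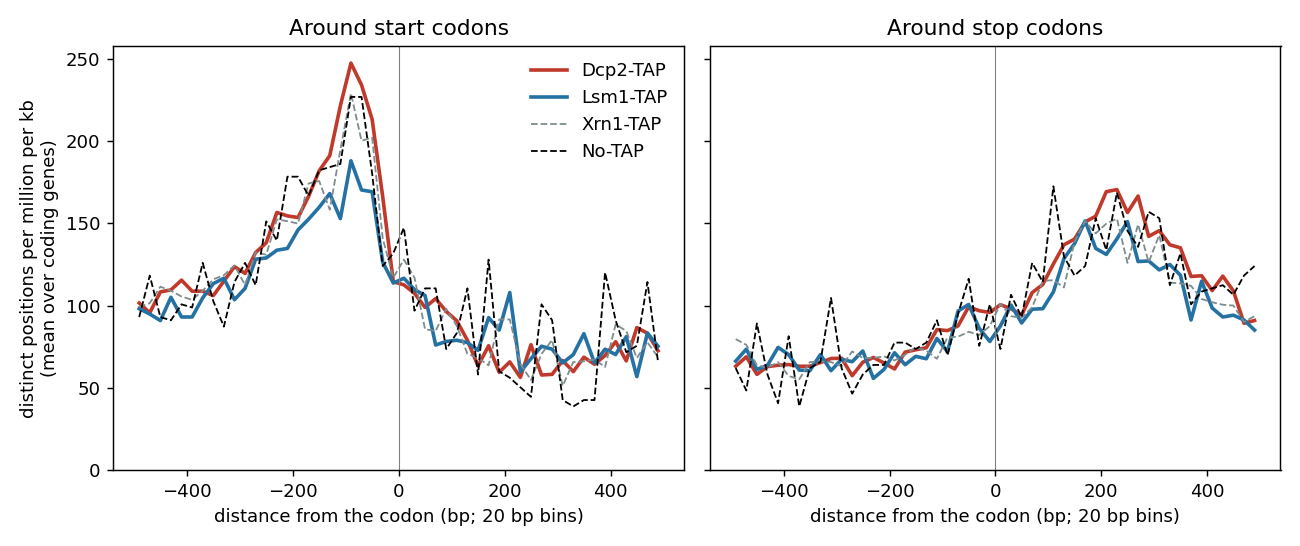
Density of distinct positions in 20 bp bins around start codons (left) and stop codons (right), scaled to the library's total of positions and per kb, averaged over coding genes. Dcp2-TAP (red) reaches its highest bin 81 to 100 bp upstream of start codons, as does Lsm1-TAP (blue) at a lower density. Xrn1-TAP and No-TAP are dashed, and No-TAP scatters most from bin to bin.

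Inside genes the ratio was lowest away from both ends and in long genes. Among 3295 genes of at least 1000 bp, without repeated reading frames, coding regions were cut into 10 equal parts, and parts 2 to 9 had a ratio of 0.863 (0.833 to 0.895). The first part stood at 0.996 (0.918 to 1.08) and the last at 1.04 (0.959 to 1.12). By length, bodies of genes from 300 bp to under 1000 bp had 1.03 (0.968 to 1.09), those to under 2000 bp 0.943 (0.901 to 0.987), those to under 3000 bp 0.907 (0.852 to 0.966) and longer ones 0.800 (0.754 to 0.850). The share of the 449 longest genes was thus lower in Dcp2-TAP than in Lsm1-TAP by more than counting error, and that of the shortest was not. These longest genes held 2608 of 43070 positions in Dcp2-TAP and 1839 of 24304 in Lsm1-TAP. They held 1107 of 17686 in Xrn1-TAP and 261 of 4542 in No-TAP, so the Lsm1-TAP share was the highest and the No-TAP share the lowest. The 103 reading frames set apart as repeated, by a shared start codon or a length that many others share, had 5482 Dcp2-TAP and 3619 Lsm1-TAP positions in their bodies, a ratio of 0.855 (0.819 to 0.892).

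Genes were then sorted by the Xrn1-TAP library, which took no part in the ratio. At the 2990 genes with 0 Xrn1-TAP positions upstream, the upstream ratio was 1.11 (1.05 to 1.17). It was 1.21 at genes with 1 position, 1.20 at 2 to 3, 1.29 (1.18 to 1.40) at 4 to 6 and 1.29 (1.14 to 1.44) at the 54 genes with 7 or more. The body ratio of the same genes was 0.933, 0.909, 0.887, 0.853 (0.808 to 0.901) and 0.915 (0.818 to 1.02) in that order. Sorting by No-TAP gave upstream ratios of 1.16 at genes with 0 positions, 1.22 at 1 and 1.27 (1.16 to 1.39) at 2 or more, beside body ratios of 0.914, 0.898 and 0.807. The upstream ratio was thus above 1 in all these classes. Its interval at 4 to 6 Xrn1-TAP positions lay above that at 0 positions, but the interval at 7 or more overlapped that at 0. The upstream intervals of the No-TAP classes overlapped. For gene bodies the Xrn1-TAP classes overlapped, while the interval at 2 or more No-TAP positions, 0.742 to 0.878, lay below that at 0, 0.889 to 0.939.

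**Figure D3:**
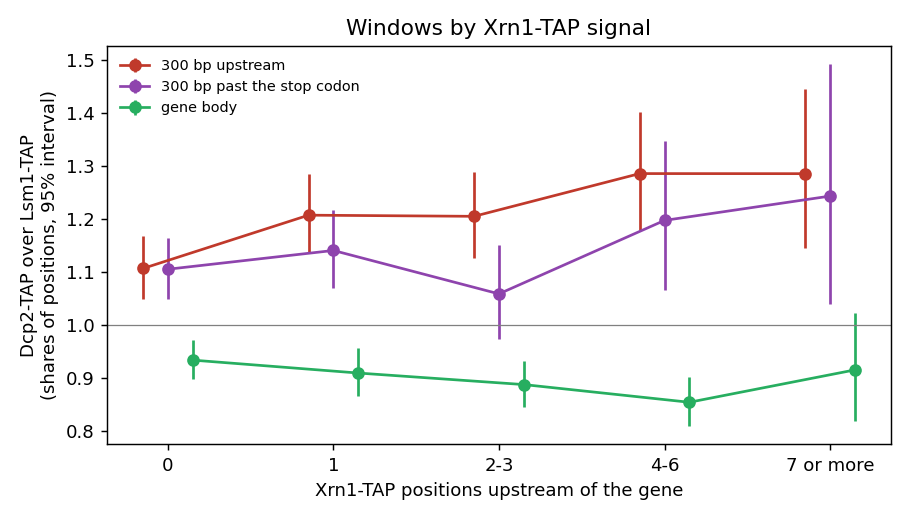
Ratio of shares, Dcp2-TAP over Lsm1-TAP, for genes sorted by their number of Xrn1-TAP positions upstream, with 95% counting intervals. Upstream windows (red) lie above 1 in all 5 classes, 1.11 at genes with 0 Xrn1-TAP positions and 1.29 at those with 7 or more, while gene bodies (green) lie below 1. Regions past stop codons (purple) lie between 1.06 at 2 to 3 positions and 1.24 at 7 or more.

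Single windows were called where the ratio reached 2 or fell to 0.5, among those with at least 10 positions in the sum of both libraries. Upstream, 326 of 5680 genes outside the ribosomal DNA had that many. Dcp2-TAP was at least 2 times Lsm1-TAP at 85 of them, or 26.1%, and at most 0.5 times at 15, or 4.6%. With few positions a window, counting error alone passes this limit often: the interval of the single gene lay above 1 at 19 and below 1 at 2. At equal positions the median of 20 thinnings was 189 windows with enough positions, 55 higher and 9.5 lower. Lsm1-TAP had 22 windows with at least 10 positions and thinned Dcp2-TAP 56.5, while the numbers with at least 1 position were 3116 in Lsm1-TAP and 3335 in thinned Dcp2-TAP. Thinned Dcp2-TAP thus had more windows at both limits. Its upstream share was also higher, and gathering beyond that share was not tested.

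The windows with the highest lower bound of the ratio, and the densest members of some lists, are given first. Counts at single genes are raw. The totals behind them are 43070 positions in Dcp2-TAP, 24304 in Lsm1-TAP, 17686 in Xrn1-TAP and 4542 in No-TAP. A low No-TAP count can therefore be a larger share of its library than a high Dcp2-TAP count. RPS31, which encodes ubiquitin fused to a small subunit ribosomal protein, had 20 positions in Dcp2-TAP and 1 in Lsm1-TAP, with 4 in Xrn1-TAP and 0 in No-TAP. Its ratio was 11.3 (1.81 to 468) by positions and 12.5 (5.58 to 34.7) by tags. ENO2, an enolase of glycolysis, had 33 positions in Dcp2-TAP and 5 in Lsm1-TAP, with 7 in Xrn1-TAP and 1 in No-TAP, a ratio of 3.72 (1.44 to 12.2). Its window overlaps that of YHR173C, so they stand as a pair. TEF2, which encodes elongation factor eEF1A, entered as a dense member of its list and had 28 positions in Dcp2-TAP and 5 in Lsm1-TAP, with 6 in Xrn1-TAP and 4 in No-TAP, a ratio of 3.16 (1.20 to 10.5). As a share of its library, No-TAP was above Dcp2-TAP at TEF2 and below it at RPS31 and ENO2. RPS31 and ENO2 were picked by the lower bound of this interval, so its place above 1 adds no support there. The same holds for TIF2, HTA2, AAR2 and YDR524C-B below. TEF2 and ILV5 were picked by their positions summed over both libraries, to which Dcp2-TAP gives more. Their intervals are therefore not independent of the pick either.

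TIF2, which encodes the translation initiation factor eIF4A, had 11 Dcp2-TAP positions and 0 Lsm1-TAP positions, with 1 in Xrn1-TAP. Against a floor of 3 positions in Lsm1-TAP it was at least 2.07-fold higher in Dcp2-TAP. HTA2, a histone H2A gene, had 20 positions in Dcp2-TAP, 2 in Lsm1-TAP, 5 in Xrn1-TAP and 1 in No-TAP, a ratio of 5.64 (1.37 to 49.8). ILV5, an enzyme of branched-chain amino acid synthesis and likewise a dense list member, had 21 in Dcp2-TAP, 3 in Lsm1-TAP, 4 in Xrn1-TAP and 2 in No-TAP, a ratio of 3.95 (1.18 to 20.7). AAR2, a splicing factor of the U5 particle, had 26, 4, 10 and 0 in the same order, a ratio of 3.67 (1.27 to 14.5). YDR524C-B, whose window overlaps that of API2, had 34, 4, 9 and 2, a ratio of 4.80 (1.71 to 18.6) by positions and 2.97 by tags.

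Windows with more Lsm1-TAP than Dcp2-TAP were fewer, and lipid genes stood among them. ITR1, the main myo-inositol transporter, had 9 positions in Dcp2-TAP and 19 in Lsm1-TAP, with 11 in Xrn1-TAP and 6 in No-TAP. The ratio was 0.267 (0.107 to 0.620) by positions and 0.315 (0.259 to 0.381) by tags, from 167 Dcp2-TAP and 313 Lsm1-TAP tags. PSD1, the phosphatidylserine decarboxylase of mitochondria, had 3 positions in Dcp2-TAP and 9 in Lsm1-TAP, with 2 in each of Xrn1-TAP and No-TAP, a ratio of 0.188 (0.0328 to 0.754). Both windows held positions in the untagged control, at a larger share of its total than in Lsm1-TAP. THI3, a regulator of thiamine genes, had 1 position in Dcp2-TAP and 7 in Lsm1-TAP, a ratio of 0.0806 (0.00179 to 0.627), with 0 in Xrn1-TAP and 0 in No-TAP. HCA4, an RNA helicase of rRNA maturation, had 2 and 7, a ratio of 0.161 (0.0163 to 0.847). ITR1, PSD1, THI3 and HCA4 were picked by the upper bound of the interval by positions, so its place below 1 adds no support.

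YBR085C-A, with 0 Dcp2-TAP and 5 Lsm1-TAP positions, was lower in Dcp2-TAP to at most 0.339 times, with the floor of 3 positions set in Dcp2-TAP. AIR1, POL2 and TMA10 each had 0 positions in Dcp2-TAP and 4 in Lsm1-TAP, which the same floor puts at 0.423 times or less. These windows, YBR085C-A included, lie under the limit of 10 positions in the sum and were picked by the upper bound. Other windows were dense in both libraries. CCW12, a mannoprotein of the cell wall, had 39 positions in Dcp2-TAP and 14 in Lsm1-TAP, with 15 in Xrn1-TAP and 5 in No-TAP, a ratio of 1.57 (0.835 to 3.13). It shares its window with YLR111W, and as a share of its library No-TAP was above Dcp2-TAP there. FAS2, a fatty acid synthase subunit, had 22 and 13, a ratio of 0.955 (0.460 to 2.06), and PDC1, a pyruvate decarboxylase of fermentation, 22 and 14, a ratio of 0.887 (0.434 to 1.87). At these 3 genes every interval by positions holds 1. By tags PDC1 had 1.30 (1.01 to 1.69), an interval that is too narrow because tags share positions. RRT15, YLR162W and YAL037C-A ranked high in both as well. RRT15 and YLR162W, whose window holds the gene RDN5-6, are uncertain.

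**Figure D4:**
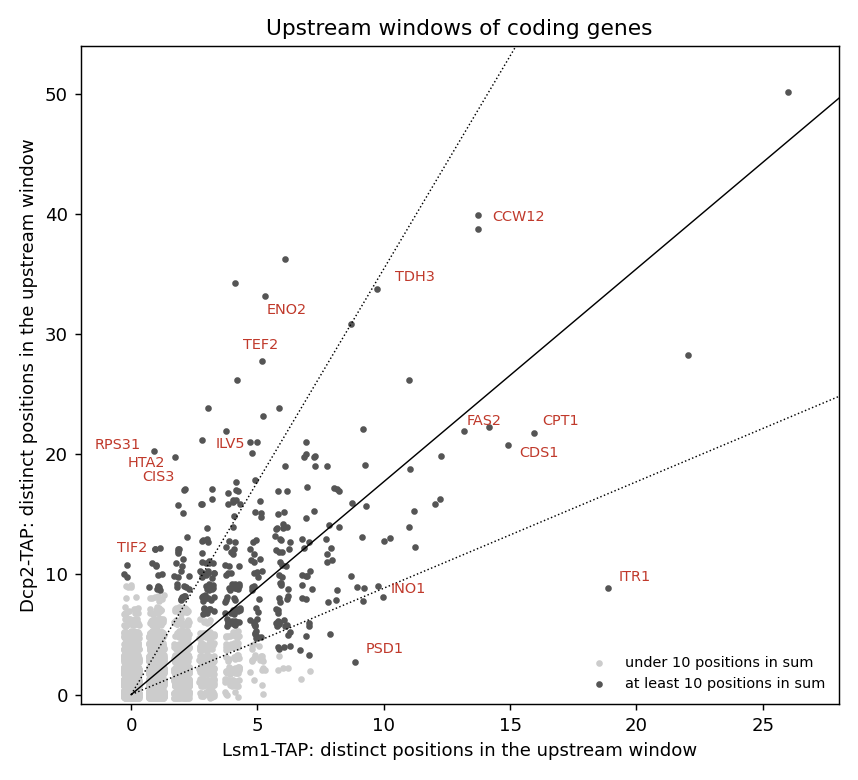
Distinct positions in the 300 bp upstream of each coding gene, Dcp2-TAP on the vertical axis and Lsm1-TAP on the horizontal axis, moved at random by up to 0.3 so that points do not hide each other. The solid line marks equal shares of the libraries and the dotted lines 2-fold differences. RPS31, ENO2 and TEF2 lie above the upper line, ITR1 and PSD1 below the lower one.

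The gene lists, which were drawn up by function, were compared by their summed positions. Over all coding genes the summed upstream ratio was 1.19 (1.15 to 1.22), and of the 4888 genes with a position in either library 60.1% had a ratio above 1. Against this, 18 of the 19 measured cell wall genes had a ratio above 1, and the list summed to 161 Dcp2-TAP and 42 Lsm1-TAP positions, a ratio of 2.16 (1.53 to 3.12). Besides CCW12 it held ZEO1, a membrane protein of the cell wall integrity pathway, with 24 positions in Dcp2-TAP and 6 in Lsm1-TAP, and CIS3, a wall glycoprotein, with 17 and 2. Without CCW12 the list stood at 2.46 (1.62 to 3.85). CCW12 itself, at 1.57, lies below the list, so leaving it out could only raise the ratio. Against No-TAP the cell wall list was at 0.999 (0.605 to 1.76) in Dcp2-TAP and at 0.462 (0.257 to 0.865) in Lsm1-TAP.

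Lists of the translation machinery had summed ratios above 1. Of the 9 measured translation elongation factor genes 8 had a ratio above 1, against 60.1% of all genes. The list had 115 Dcp2-TAP and 35 Lsm1-TAP positions in all, a ratio of 1.85 (1.26 to 2.79). TEF1, the second eEF1A gene, had 19 and 8 positions, and EFT2, which encodes eEF2, 12 and 1. The 54 small subunit ribosomal protein genes summed to 1.45 (1.19 to 1.78), and 10 of the 23 with at least 10 positions were at least 2 times higher in Dcp2-TAP and 0 at most 0.5 times. The 78 large subunit genes summed to 1.39 (1.19 to 1.63), with 16 of 37 higher and 3 lower. RPL28 had 23 positions in Dcp2-TAP and 5 in Lsm1-TAP, and RPS14B 20 and 5. RPL9B, with RPL28 the densest of the large subunit list, had 22 and 9, a ratio of 1.38 (0.610 to 3.40). RPL30, chosen after its value was seen, had 16 and 2. The 3 lower large subunit genes are not named here. Among all genes with enough positions 26.1% were higher and 4.6% lower. Without overlapping or RNA-gene windows the small subunit list had 1.25 (1.00 to 1.56), which holds the 1.19 of all genes. Against No-TAP the elongation factor list stood at 2.02 (0.901 to 5.62) in Dcp2-TAP and 1.09 (0.454 to 3.17) in Lsm1-TAP. The small subunit list stood at 1.18 (0.818 to 1.75) in Dcp2-TAP and 0.812 (0.550 to 1.23) in Lsm1-TAP. The large subunit list stood at 0.923 (0.713 to 1.21) in Dcp2-TAP and 0.664 (0.502 to 0.889) in Lsm1-TAP. Of these 6 intervals, that of the large subunit list in Lsm1-TAP leaves out 1.

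Ribosome biogenesis genes, which build the subunits in the nucleolus, summed to 1.74 (1.27 to 2.41). Of 44 with positions 35, or 79.5%, were above 1, against 60.1% of all genes. NOC4 had 21 Dcp2-TAP and 7 Lsm1-TAP positions. Glycolysis and fermentation stood at 1.58 (1.21 to 2.08), with TDH3, a glyceraldehyde-3-phosphate dehydrogenase, at 34 positions in Dcp2-TAP and 10 in Lsm1-TAP, with 11 in Xrn1-TAP and 6 in No-TAP. Its ratio of 1.92 (0.927 to 4.35) holds 1, and as a share of its library No-TAP was above Dcp2-TAP there. The 61 genes of mitochondrial ribosomal proteins, in contrast, had a ratio of 0.901 (0.658 to 1.24), which turns to 1.06 with median scaling. Cytosolic chaperones stood at 1.51 (1.05 to 2.20), where SSA2, an Hsp70, had 19 and 11 positions and HSC82, an Hsp90, 20 and 7. Against No-TAP glycolysis and fermentation stood at 0.911 (0.601 to 1.44) in Dcp2-TAP and 0.576 (0.362 to 0.944) in Lsm1-TAP. Chaperones stood at 0.758 (0.447 to 1.37) and 0.502 (0.277 to 0.955) in that order, and ribosome biogenesis at 1.56 (0.851 to 3.19) and 0.900 (0.465 to 1.91).

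Membrane lipid genes were listed by branch, and no test between branches was run. The 22 genes of inositol and phospholipid synthesis, many of them under the activators Ino2 and Ino4, summed to 146 Dcp2-TAP and 127 Lsm1-TAP positions, a ratio of 0.649 (0.508 to 0.829). Of them 15 had a ratio below 1 by positions, against 39.9% of all genes. By tags 8 of the 22 did, or 36.4%, against 38.7% of all genes, so the count of members depends on the measure. Of the 9 with at least 10 positions 0 were at least 2 times higher and 3 at most 0.5 times, with a median log2 ratio of -0.83 against 0.40 over all tested genes. CPT1, a cholinephosphotransferase, had 22 positions in Dcp2-TAP and 16 in Lsm1-TAP, a ratio of 0.776 (0.389 to 1.58), and CDS1, which makes CDP-diacylglycerol, had 21 and 15. INO1, inositol-3-phosphate synthase, had 8 and 10, a ratio of 0.451, and EKI1, an ethanolamine kinase, 12 and 11. CHO1, the phosphatidylserine synthase, had 8 in each library.

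The summed ratio of this list was 0.630 (0.484 to 0.822) without CPT1, 0.588 (0.440 to 0.785) without windows that overlap another or hold an RNA gene, 0.725 by tags and 0.766 with median scaling. CPT1 itself, at 0.776, lies nearer 1 than the list, so leaving it out could only lower the ratio. The list was not computed without ITR1 or PSD1, which lie far below 1. Against No-TAP the list stood at 0.733 (0.462 to 1.22) in Dcp2-TAP and at 1.13 (0.709 to 1.89) in Lsm1-TAP, both with intervals that hold 1, and the control had 21 positions in all. The 26 genes of ergosterol synthesis, the other main membrane lipid of yeast, had 77 Dcp2-TAP and 25 Lsm1-TAP positions, a ratio of 1.74 (1.09 to 2.85). Of 25 with positions 19, or 76%, lay above 1, against 60.1% of all genes. That interval holds the ratio of all genes, and without overlapping or RNA-gene windows the list had 1.59 (0.949 to 2.75). The 10 fatty acid synthesis genes had 0.705 (0.432 to 1.16), and 8 of them lay below 1, against 39.9% of all genes. Without FAS2 the list held 18 Dcp2-TAP and 19 Lsm1-TAP positions. Equal counts in both libraries already give 0.564, as at ELO2 with 3 in each, so this count says little. Against No-TAP, with 11 positions, this list stood at 0.383 (0.193 to 0.829) in Dcp2-TAP and 0.544 (0.267 to 1.20) in Lsm1-TAP. ELO3, a fatty acid elongase, had 3 positions in Dcp2-TAP and 5 in Lsm1-TAP.

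The median distance of the positions to the start codon, within 500 bp, also varied between lists. At the core histone genes it was 101.5 bp for Dcp2-TAP and 165 bp for Lsm1-TAP, with 97 bp for Xrn1-TAP. The list as a whole had an upstream ratio of 1.22 (0.842 to 1.80), within which HTA2 stood high and HHT1, a histone H3 gene, had 9 positions in each library. Cell wall genes had medians of 123.5 bp and 160.5 bp. Large subunit ribosomal protein genes had 85 bp and 91.5 bp, and inositol and phospholipid genes 209 bp and 200 bp. These are descriptions with no test, from 61 Lsm1-TAP positions at the histone genes.

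Genes of the decay machinery itself held few positions. The 15 genes of decapping and the Lsm ring summed to 21 Dcp2-TAP and 8 Lsm1-TAP positions upstream, a ratio of 1.48 (0.630 to 3.87), and none of them reached 10 positions. The list of 23 other cytoplasmic mRNA decay genes had 34 and 14, a ratio of 1.37 (0.716 to 2.76). Upstream of DCP2 there were 3 positions in Dcp2-TAP and 0 in Lsm1-TAP, upstream of LSM1 1 and 2, and upstream of XRN1 0 and 2. In the gene bodies DCP2 had 7 Dcp2-TAP and 6 Lsm1-TAP positions, LSM1 1 and 0, and XRN1 16 and 8. These counts are too few to tell the libraries apart at the loci of the tagged genes.

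The intervals of the 4 other lists hold the 1.19 of all genes, as do those of chaperones, ergosterol, core histones, mitochondrial ribosomal proteins and both decay lists. Amino acid synthesis genes stood at 1.25 (0.960 to 1.64), with CYS3, an enzyme of cysteine synthesis, at 8 Dcp2-TAP and 3 Lsm1-TAP positions. Hexose transport and glucose repression stood at 1.33 (0.736 to 2.50), where HXT3, a glucose transporter, had 9 and 1 positions and MIG2, a repressor, 6 in each. Thioredoxin and peroxiredoxin genes stood at 1.07 (0.707 to 1.64), with TRX1 at 31 and 9. Genes silent in glucose stood at 0.978 (0.499 to 1.99), with 26 Dcp2-TAP and 15 Lsm1-TAP positions over 23 genes, SPS1 alone having 13 and 4.

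**Figure D5:**
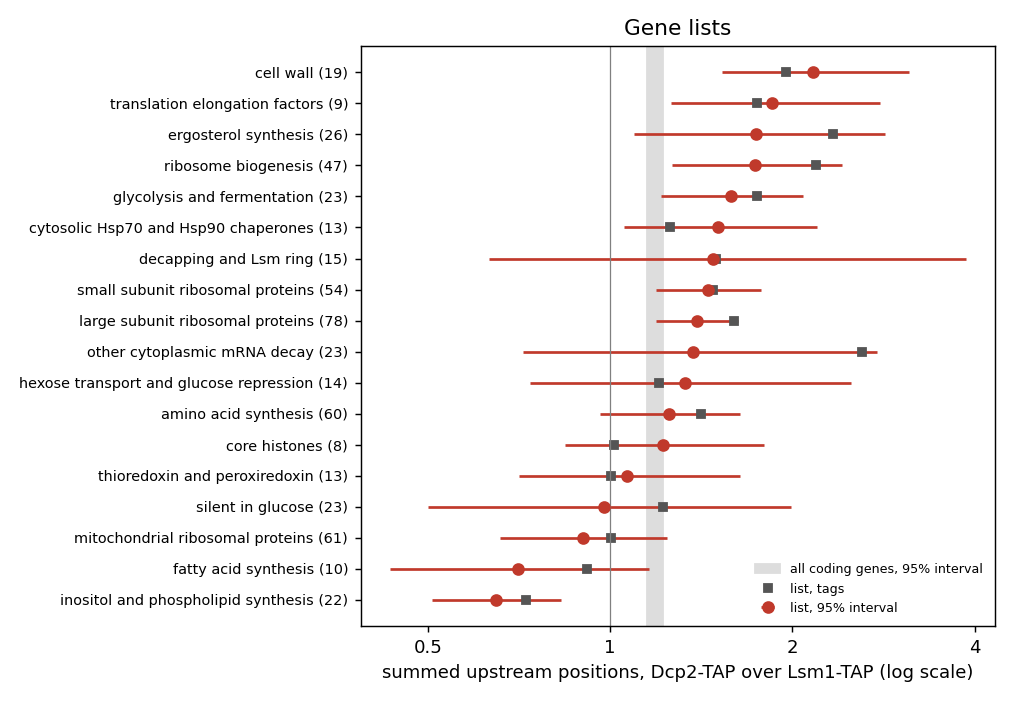
Summed upstream positions of each gene list, Dcp2-TAP over Lsm1-TAP as a ratio of shares on a log scale, with the number of measured genes in parentheses. Circles are positions with 95% counting intervals, squares are tags, and the grey band is the interval of all coding genes (1.15 to 1.22). By positions cell wall genes (2.16) lie highest and inositol and phospholipid genes (0.649) lowest. By tags other mRNA decay (2.60), ergosterol (2.33) and ribosome biogenesis (2.19) lie above cell wall (1.95).

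In gene bodies the 2-fold calls at full depth were balanced in number. Of 469 genes with at least 10 positions, Dcp2-TAP was at least 2 times Lsm1-TAP at 60, or 12.8%, and at most 0.5 times at 59, or 12.6%. At equal positions the numbers were 21 and 34, and with median scaling 66 and 38, so this balance rests on the depth and the scaling. Of the 469 genes 181 had a ratio above 1 and 288 below. ECM15 had 17 positions in Dcp2-TAP and 0 in Lsm1-TAP, with 3 in Xrn1-TAP and 1 in No-TAP, and was at least 3.20-fold higher in Dcp2-TAP. HOB2, whose body overlaps the upstream window of MRI1, had 13 and 0, and GRS2, a second glycyl-tRNA synthetase gene, 11 and 0. FLC1 and SMN1 had 10 and 0 each. On the other side NUM1, which anchors dynein at the cell cortex, had 5 positions in Dcp2-TAP and 17 in Lsm1-TAP, with 11 in Xrn1-TAP and 1 in No-TAP, a ratio of 0.166 (0.0479 to 0.469). RPL9A had 0 and 7, AMN1, an antagonist of mitotic exit, 1 and 9, SET5, a histone methyltransferase, 2 and 9, and MAL13, a maltose gene activator, 0 and 5. The gene bodies named here were picked by the bounds of the ratio, so an interval apart from 1 adds no support.

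Past stop codons Dcp2-TAP was at least 2 times Lsm1-TAP at 51 of 237 genes, or 21.5%, and at most 0.5 times at 14, or 5.91%. ATP4, a subunit of the mitochondrial ATP synthase, and its neighbour RPL21B share a 3′ window, with 13 and 12 positions in Dcp2-TAP and 0 in Lsm1-TAP at each. ATP4 was thus at least 2.45-fold higher in Dcp2-TAP. BUD22 had 15 positions in Dcp2-TAP and 1 in Lsm1-TAP, a ratio of 8.46 (1.30 to 356). ATP4, RPL21B and BUD22 were picked by the lower bound of the ratio, so its place above 1 adds no support. YJR029W and RBH2, which overlap and lie in repeated sequence, had 22 and 24 in Dcp2-TAP and 2 and 3 in Lsm1-TAP, and are uncertain.

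Of the 3′ windows with more Lsm1-TAP, several held another feature. That of SEC20, a SNARE protein, had 7 positions in Dcp2-TAP and 16 in Lsm1-TAP and overlaps the upstream window of ITR1 described above. The window of FMP41, with 4 and 10, likewise overlaps that of PSD1. At VPS45, with 0 and 5, the window holds the tRNA gene SOE1, and at BAR1, with 2 and 8, the tRNA gene YNCI0008C. MSC1, whose window overlaps the upstream window of COX14, had 0 in Dcp2-TAP and 5 in Lsm1-TAP, with 1 in No-TAP. By list, glycolysis and fermentation had the ratio 1.73 (1.28 to 2.36) past stop codons, from 181 Dcp2-TAP and 59 Lsm1-TAP positions, against 1.12 (1.08 to 1.16) over all genes. Other cytoplasmic mRNA decay had 2.61 (1.20 to 6.49), from 37 Dcp2-TAP and 8 Lsm1-TAP positions. Amino acid synthesis had 1.51 (1.11 to 2.07), an interval that holds the ratio of all genes. Inositol and phospholipid genes had 37 Dcp2-TAP and 11 Lsm1-TAP positions there, a ratio of 1.90 (0.948 to 4.13), which lies on the other side of 1 from their upstream windows.

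Among RNA genes the snoRNA genes, whose products guide the modification and cleavage of rRNA, were higher in Dcp2-TAP and the tRNA genes were not. With 50 bp on each side, the 71 snoRNA genes held 0.910% of the Dcp2-TAP and 0.675% of the Lsm1-TAP positions, a ratio of 1.35 (1.12 to 1.63) by positions and 1.55 by tags. The 28 H/ACA genes, which guide pseudouridylation, had 1.37 (1.07 to 1.76), and the 43 C/D genes, which guide methylation, 1.32 (0.994 to 1.78). The tRNA genes, which RNA polymerase III transcribes, held 1.80% of Dcp2-TAP and 1.92% of Lsm1-TAP, a ratio of 0.938 (0.835 to 1.05). No-TAP had 0.771% at snoRNA genes, and neither library differed from it there beyond counting error, with Dcp2-TAP at 1.18 (0.835 to 1.72) and Lsm1-TAP at 0.876 (0.605 to 1.30) times. The 5 spliceosomal snRNA genes had 44 and 21 positions, a ratio of 1.18 (0.688 to 2.09).

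Of 50 RNA genes with at least 10 positions Dcp2-TAP was at least 2 times Lsm1-TAP at 6, or 12%, and at most 0.5 times at 0, or 0%. By tags the numbers were 15 and 2. SNR17A, a U3 gene, had 37 positions in Dcp2-TAP and 11 in Lsm1-TAP, with 11 in Xrn1-TAP and 3 in No-TAP, a ratio of 1.90 (0.948 to 4.13) by positions and 3.55 (2.73 to 4.68) by tags. SNR37, an H/ACA gene, had 29 and 8, with 5 in Xrn1-TAP and 1 in No-TAP, a ratio of 2.05 (0.912 to 5.18) by positions and 4.51 (3.13 to 6.69) by tags. SNR45 had 29 and 9, a ratio of 1.82 (0.838 to 4.37). SNR30, which acts in 18S rRNA processing, had 33 and 14, a ratio of 1.33 (0.693 to 2.69). Every interval by positions at these 4 genes holds 1, and the intervals by tags are too narrow because tags share positions.

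LSR1, the U2 snRNA gene, had 21 positions in Dcp2-TAP and 9 in Lsm1-TAP, a ratio of 1.32 (0.578 to 3.27). The 5S genes outside the large repeat, RDN5-3, RDN5-4 and RDN5-6, lay between 0.779 and 0.832, with 28 to 29 Dcp2-TAP and 19 to 21 Lsm1-TAP positions. These copies are nearly identical and their values are uncertain. Single tRNA genes differed in both directions at low counts. EMT4, a gene of the elongator methionine tRNA, had 8 positions in Dcp2-TAP and 0 in Lsm1-TAP, and YNCB0005C 7 and 0. In the other direction SOE1 had 0 and 5, YNCI0008C 2 and 7, YNCO0018W 0 and 4, YNCG0042C 1 and 5, and YNCE0028C 0 and 3.

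The libraries rarely hit the same base and often the same neighbourhood. At the same position and strand 827 positions were common to both, 1.84% of Dcp2-TAP and 3.26% of Lsm1-TAP. Of these 404 lay inside the ribosomal DNA and 423 outside. Within 50 bp on the same strand, 32.1% of the Dcp2-TAP positions had a Lsm1-TAP position and 41.6% of the Lsm1-TAP positions had a Dcp2-TAP position. With both thinned to 18481 positions, the number in Xrn1-TAP, a Lsm1-TAP position lay within 50 bp of 27.4% of the Dcp2-TAP positions. At that depth 29.0% of Dcp2-TAP had an Xrn1-TAP position, and 28.9% of Lsm1-TAP did. With all thinned to 4743 positions, the number in No-TAP, 12.3% of Dcp2-TAP had a Lsm1-TAP position and 12.5% a No-TAP position, and 12.9% of Lsm1-TAP had a No-TAP position. Over 12058 bins of 1 kb outside the ribosomal DNA, the numbers of positions in both libraries had a Pearson correlation of 0.79 and a Spearman correlation of 0.45, a description over bins that share base composition and mappability. Dcp2-TAP had 0.79 and 0.45 with Xrn1-TAP, and 0.60 and 0.30 with the sparser No-TAP.

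By chromosome the shares were alike. Of 16 chromosomes, taken without the ribosomal DNA, the ratio was lowest on IX at 0.887 (0.808 to 0.974) and highest on III at 1.13 (1.02 to 1.25), and the other intervals all hold 1, that of XI included at 1.02 (0.949 to 1.11).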

How the data were processed

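ChIP-exo was run on yeast strains with a TAP tag on Dcp2, Lsm1 or Xrn1 and on a strain without a tag. Fixation was with 1% formaldehyde and sonication gave a median fragment of 250 to 300 bp, after which lambda and RecJf exonucleases trimmed the DNA held on IgG beads, per the labels' protocols. Per the file headers, the authors deposited counts of tags per index on the forward and the reverse strand and their sum, not normalized. Not given in the sources used here: aligner, genome build, duplicate removal. Of the 2 replicates that the series mentions, it is not stated whether a file holds both, so a file was taken as 1 library.

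Names and gene positions come from the RefSeq table of the R64 assembly. As no build is named, gene positions were used only after the lag that puts most positions upstream of start codons was found to be at most 30 bp on 15 of 16 chromosomes, and at most 40 bp for tRNA genes on the 14 with at least 10 of them. Chromosome XI had another lag and was left out of gene windows. Distances may be off by such lags, and no coordinates are given. Start codons, not transcription starts, were the anchors.

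Distinct positions were counted per window and divided by library totals. Dcp2-TAP was also thinned in 20 seeded draws. Calls are folds of 2 with at least 10 positions in the sum, with no p-value. Software was scipy 1.17.1, pandas 2.3.3, numpy 2.4.6 and matplotlib 3.10.9 under Python 3.11.15, and the procedures were tested on simulated data. A floor of 3 positions per library stands in for 0 in bounds.

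Named genes were the 8 upstream windows with the highest lower bound, the 8 with the lowest upper bound and the 8 best in both libraries, 5 each for bodies, 3′ regions and RNA genes, the loci of the tagged genes, and the 2 densest members of each list. Genes beyond that rule (CIS3, EFT2, RPL30, EKI1, INO1, CHO1, HHT1) were chosen after their values were seen. The comparison, lists and rules were chosen with earlier results of these data known. Grouping of tRNA genes by amino acid was not made, and sequences were not used here.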

Additional observations from a re-analysis of the deposited data

How the results depend on the processing

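With 1 library a side the values cover counting error only, and low counts limit most single windows. No paired analysis was possible because each strain has 1 library. Of the alternatives for the main results, 76 gave the same reading, 38 moved the value and 1 turned a ratio whose interval leaves out 1. Ratios whose interval holds 1 also crossed it: snRNA genes without flanks (1.08) were at 0.790 by tags and 0.976 at equal positions, and tRNA genes without flanks (0.954) at 1.13 with median scaling. The cause was not tested except where fewer positions or other windows make the change.

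The median ratio of upstream windows with positions in both libraries is 0.846, a shift of -0.24 on the log2 scale. That median sets no lower limit on positions, and over the 326 windows with at least 10 in the sum the median ratio was 1.32. Scaling to 0.846 was tried for feature shares, lists and the other windows only after seeing the data. It put coding regions above 1 (1.09), and gave 1.39 upstream, 1.31 past stop codons, 0.929 at the ribosomal DNA, 38 lower gene bodies and 11 higher RNA genes. It raises all list ratios by the same factor. The upstream ratio with 150 bp windows was 1.25, and the ribosomal DNA ratio was 0.612 once positions near No-TAP (up to 100 bp) were removed.

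The 85 upstream windows higher in Dcp2-TAP became 55 with equal positions, 33 without positions near No-TAP, 150 with 500 bp windows, 411 and 26 with at least 5 and 20 positions, and 40 for tandem genes with windows ended at the neighbour. The 15 lower became 34 by tags, 7 without positions near No-TAP, 3 and 40 with windows of 150 and 500 bp, and 150 and 1 with at least 5 and 20 positions. At equal positions gene bodies gave 21 higher and 34 lower. Regions past stop codons gave 32 higher and 9 lower at equal positions, 10 and 2 with 150 bp, 102 and 28 with 500 bp, and 24 lower by tags. RNA genes gave 15 higher and 2 lower by tags, and 2 higher without flanks.

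With positions of at least 2 tags, the share at the same base was 1.64% of Dcp2-TAP and 2.996% of Lsm1-TAP, and within 50 bp 25.3% and 34.2%. At equal positions 1.84% of Lsm1-TAP were at the same base and 32.8% within 50 bp. Leaving out repeated reading frames, tried after seeing the data, gave 1.38 for the start codon fold and 1.22 for the stop codon fold. List values by tags, without the densest member or without overlapping windows were also chosen then.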

Other observations

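Bins of 1 kb over the whole nuclear genome, ranked by the bounds of the ratio and so chosen by their values, showed where the pair differed most without regard to gene windows. The bin at TRX1, a thioredoxin gene, had 44 positions in Dcp2-TAP and 7 in Lsm1-TAP, with 9 in Xrn1-TAP and 4 in No-TAP. A bin at the snoRNA gene SNR11 and CMC4 had 59 in Dcp2-TAP and 12 in Lsm1-TAP, with 16 in Xrn1-TAP and 1 in No-TAP. At RRB1 and JLP2, the first of which acts in ribosome assembly, 11 Dcp2-TAP positions stood against 0 in each of the other 3 libraries. A bin at YTM1, a ribosome biogenesis factor, and TPO4 had 16 and 1.

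On the other side the bins held fewer positions. A bin at ROX1, the repressor of hypoxic genes, and YPR064W had 1 position in Dcp2-TAP and 8 in Lsm1-TAP. At PEX17 and RRG9 there were 0 and 6, and at VAN1, a mannosyltransferase subunit, 0 and 5, with 0 in Xrn1-TAP and No-TAP at both. The bins at YRF1-3 and YBL111C, with 2 Dcp2-TAP and 9 Lsm1-TAP positions each, are uncertain, since such chromosome-end sequences occur in several copies.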
